A study of Mus musculus with 4 samples.

Results

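The 10 genes described here encode ligands through which a cell speaks to T cells, natural killer cells and macrophages, together with a partner protein of PD-L1. They are Cd274, Pdcd1lg2, Cd80, Vsir, Cmtm6, Cd47, Lgals9, Pvr, Tnfsf9 and Ulbp1, chosen by symbol, and each matched 1 of the 36445 genes in the deposited expression table. The cells were MC38, a mouse colon cancer line, given 5-FU at 1 mM or PBS for 24 h before sequencing of polyadenylated RNA, with 2 libraries in each group. 5-FU (5-fluorouracil) is a pyrimidine analogue that blocks thymidylate synthase and is built into RNA and DNA, and PBS is the saline vehicle. Values are FPKM, that is, fragments scaled to gene length and library size, so a level is relative to its library and not an amount per cell. In bulk samples of this kind, fewer cells expressing a gene and less of its RNA per cell cannot be told apart.

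T cells read several of these ligands as brakes or as second signals. PD-L1 and PD-L2 bind PD-1 on activated T cells and restrain them, while CD80 binds both the activating receptor CD28 and the inhibitory receptor CTLA-4. Natural killer cells and some T cells carry NKG2D, an activating receptor whose ligands, such as the product of Ulbp1, appear on stressed, infected or transformed cells. Macrophages are held back from engulfing a cell that displays CD47.

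Depth estimated from the smallest steps of the FPKM values was 20.8 M and 20.6 M reads in 5-FU replicates 1 and 2 and 41.3 M and 41.6 M reads in PBS replicates 1 and 2, so counting error is larger in the 5-FU libraries. Over all 11644 genes tested, the 5-FU libraries lay a median of 0.07 log2 apart and the PBS libraries 0.27 log2 apart. The median log2 difference of those genes, 5-FU minus PBS, was -0.10 as deposited and 0.02 after quantile normalization. A gene was tested where 2 or more libraries reached 1 FPKM, and differences are on the log2(FPKM + 1) scale, which understates the change of low genes. A gene was called higher or lower where limma's Benjamini-Hochberg adjusted p over all tested genes was under 0.05. Vim, a mesenchymal marker, was abundant in this line, at 1069 and 1036 FPKM in 5-FU and 972.9 and 889.7 FPKM in PBS. Levels were uneven over the 7 mesenchymal markers, of which 6 passed the filter. Col1a1 was at 1.16 and 1.21 FPKM in 5-FU and 0.796 and 1.29 FPKM in PBS. Thy1, below the filter, was at 0 and 0.0279 FPKM in 5-FU and 0 FPKM in each PBS library. None of 9 epithelial markers passed the filter, their sum ranging over 1.67 to 1.73 FPKM in 5-FU and 0.769 to 1.57 FPKM in PBS, so these genes did not show an epithelial profile. Of 6 tested mesenchymal markers 2 fell, Fn1 (226.7 and 218.3 FPKM in 5-FU against 389.2 and 588 FPKM in PBS, adjusted p = 0.0155) and Pdgfrb (0.596 and 0.558 FPKM against 2.35 and 5.07 FPKM, adjusted p = 0.0158). Among all tested genes, 31.2% were called lower. The call of Fn1 was lost without 5-FU replicate 1 or 2 (adjusted p = 0.0564 and 0.0657), with no filter (0.0643) and with each library's trend with gene span, the length from a gene's start to its end, removed (0.0585). Pdgfrb passed the filter through the PBS libraries alone, and with no filter its adjusted p was 0.0693.

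After 5-FU, Cd274, Ulbp1, Cmtm6 and Lgals9 rose and Cd47 fell, while Pvr and Tnfsf9 did not pass the test and Pdcd1lg2, Cd80 and Vsir stayed below 1 FPKM in every library. Lgals9 passed only at the edge of the threshold (limma adjusted p = 0.0499), and its call was lost in 12 of 15 other settings. Of the 7 genes tested, 4 were called higher, against 22.1% of all tested genes, and 1 was called lower, against 31.2%; in either direction 5 were called, against 53.3%. In 6 of the 7 both 5-FU libraries lay above both PBS libraries, an arrangement found in 35.9% of all tested genes, and in Cd47 both lay below, as in 45.1%. Groups without overlap were the rule here, at 81% of all tested genes. The median log2 difference of the 7 was 0.42, beside -0.10 over all tested genes. All 7 reached 1 FPKM in every library, so none entered the test through a single group. The summed level of the 10 genes was 180.2 and 174.8 FPKM in 5-FU and 110.9 and 109.6 FPKM in PBS, and Cd274 supplied 21.96% and 22.3% of that sum in 5-FU and 4.17% and 4.61% in PBS. Total FPKM was larger in the 5-FU libraries. Of that total the 10 genes made up 0.0462% and 0.0451% in 5-FU and 0.0323% and 0.0305% in PBS. The PBS libraries differed from each other by more than the 5-FU libraries did in 6 of the 7 tested genes on the log2 scale, with Cd47 as the exception. Fewer of the 7 were called when either 5-FU library was left out, with the error then resting on the wider PBS pair. More were called when either PBS library was left out, with the error resting on the closer 5-FU pair. Counts over all tested genes also moved in both directions when single libraries were left out, so such shifts are not particular to the 7. Such fits take the spread of a single library from the group that still has 2.

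**Figure D1:**
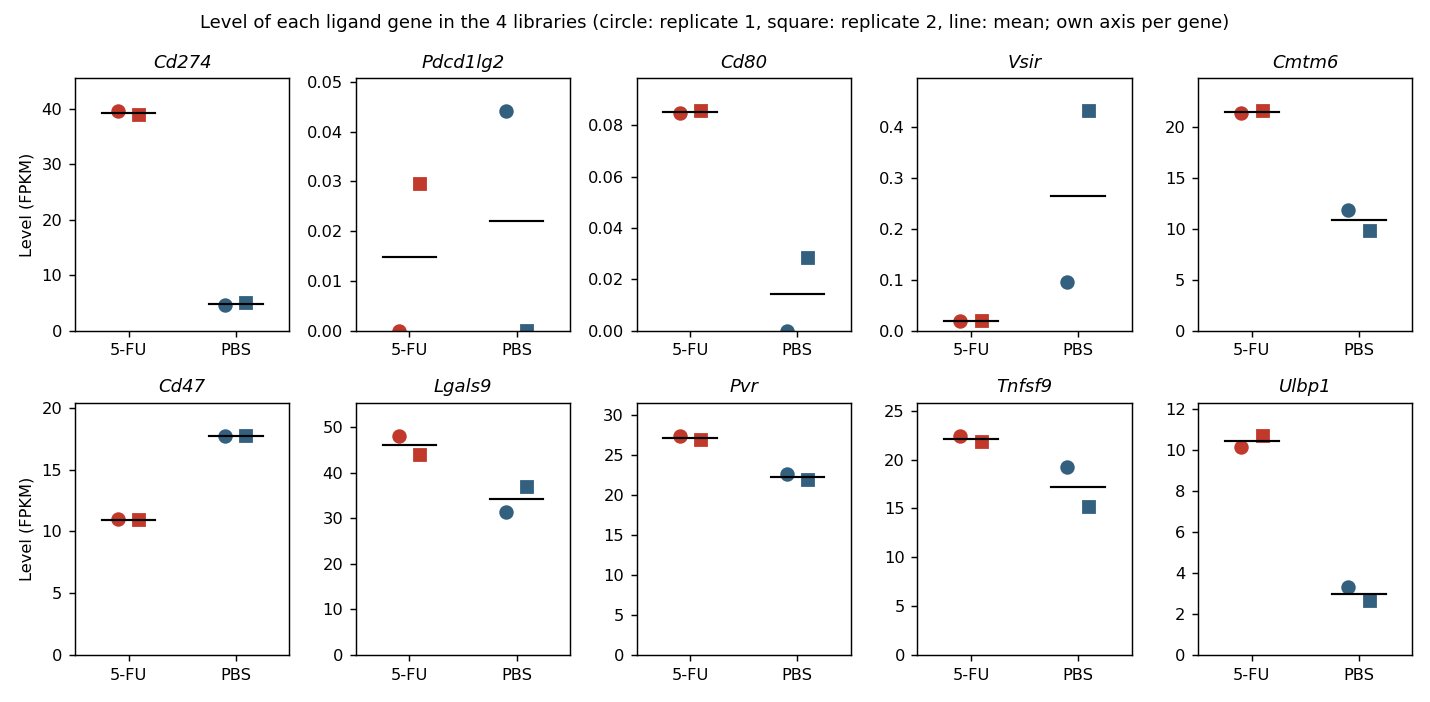
Level in FPKM (vertical axis, from 0, its own scale for each gene) of the 10 genes in the 5-FU and PBS libraries; circles are replicate 1, squares replicate 2 and lines group means. Cd274 stood at 39.6 and 38.9 FPKM in 5-FU and 4.63 and 5.05 FPKM in PBS, Cd47 was lower in 5-FU, and Pdcd1lg2, Cd80 and Vsir lay below 0.5 FPKM throughout.

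The order of levels changed with treatment. In 5-FU the means ran from Lgals9 (46.0 FPKM) through Cd274 (39.2), Pvr (27.1), Tnfsf9 (22.1), Cmtm6 (21.5), Cd47 (10.95) and Ulbp1 (10.4) to Cd80 (0.0851), Vsir (0.0192) and Pdcd1lg2 (0.0147). In PBS they ran from Lgals9 (34.1 FPKM) through Pvr (22.2), Cd47 (17.7), Tnfsf9 (17.2), Cmtm6 (10.8), Cd274 (4.84) and Ulbp1 (2.98) to Vsir (0.264), Pdcd1lg2 (0.0221) and Cd80 (0.0141). Cd274 thus held place 2 in 5-FU and place 6 in PBS, and Cd47 place 6 in 5-FU and place 3 in PBS. Neighbours whose library values overlapped were Vsir and Pdcd1lg2 in 5-FU, and Cd47 and Tnfsf9 as well as Pdcd1lg2 and Cd80 in PBS. Differences between neighbouring genes were not tested.

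Cd274, which encodes PD-L1 (ENSMUSG00000016496, GRCm38 chromosome 19, 29367455 to 29388095, plus strand), was the gene that rose most among the 7. Its level was 39.6 and 38.9 FPKM in 5-FU replicates 1 and 2, against 4.63 and 5.05 FPKM in PBS replicates 1 and 2, corresponding to an estimated 2985 and 2907 reads against 693 and 761. Both 5-FU libraries were far above both PBS libraries, and each pair was tight. The ratio of means was 8.11 and the log2 difference 2.79 ± 0.116 (SE, n = 2 libraries in each group; 95% interval 2.48 to 3.09, adjusted p = 0.0027). It took rank 26 among the 11644 tested genes by log2 difference. The call held in all 15 other settings tried, with differences of 2.73 to 2.995.

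Genes around Cd274 differed in direction. Its neighbour on the plus strand, Pdcd1lg2, which encodes PD-L2, begins 22823 bp downstream and was at 0 and 0.0295 FPKM in 5-FU and at 0.0441 and 0 FPKM in PBS, about 0 and 1.19 reads against 3.58 and 0. The level of 3 reads, which covers counting error only, was 0.0735 and 0.0742 FPKM in 5-FU and 0.037 and 0.0368 FPKM in PBS. Only PBS replicate 1 lay above it, by less than 1 read. Expression was therefore not established at this depth, and no difference could be read. On the opposite strand Plgrkt, which encodes a plasminogen receptor and was picked out after its values were seen, begins 64 bp away from Cd274 and is read in the opposite direction. Plgrkt rose to 13.1 and 13.8 FPKM in 5-FU, against 7.72 and 7.36 FPKM in PBS (ratio 1.78, log2 difference 0.76 ± 0.12 SE, adjusted p = 0.00834). That call was lost without 5-FU replicate 1 or 2 (adjusted p = 0.123 and 0.154). Insl6, an insulin-like gene 42098 bp away on the minus strand, had a similar ratio of 1.79, at 13.2 and 11.8 FPKM in 5-FU and 4.05 and 9.92 FPKM in PBS. The groups of Insl6 did not overlap, but its PBS libraries lay far apart and it did not pass (log2 difference 0.86 ± 0.387 SE, adjusted p = 0.122). It passed as higher with the replicate block (0.0486) and when PBS replicate 1 (0.00851) or PBS replicate 2 (6.94e-07) was left out. Jak2, a kinase gene 54374 bp before Cd274, was the nearest expressed gene upstream on the same strand. It measured 10.6 and 10.5 FPKM in 5-FU and 9.03 and 13.0 FPKM in PBS. Its 5-FU libraries lay between the PBS libraries, and it did not pass (limma adjusted p = 0.886). Only without PBS replicate 1 did Jak2 pass, as lower (log2 difference -0.28, against -0.04 with all libraries). Ric1, 134186 bp beyond the end of Cd274, fell to 1.97 and 1.89 FPKM in 5-FU, against 5.88 and 6.77 FPKM in PBS (adjusted p = 0.00395). Whether the counting used strand is not stated, so reads of Plgrkt and Cd274 at their shared boundary may not be fully separable.

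**Figure D2:**
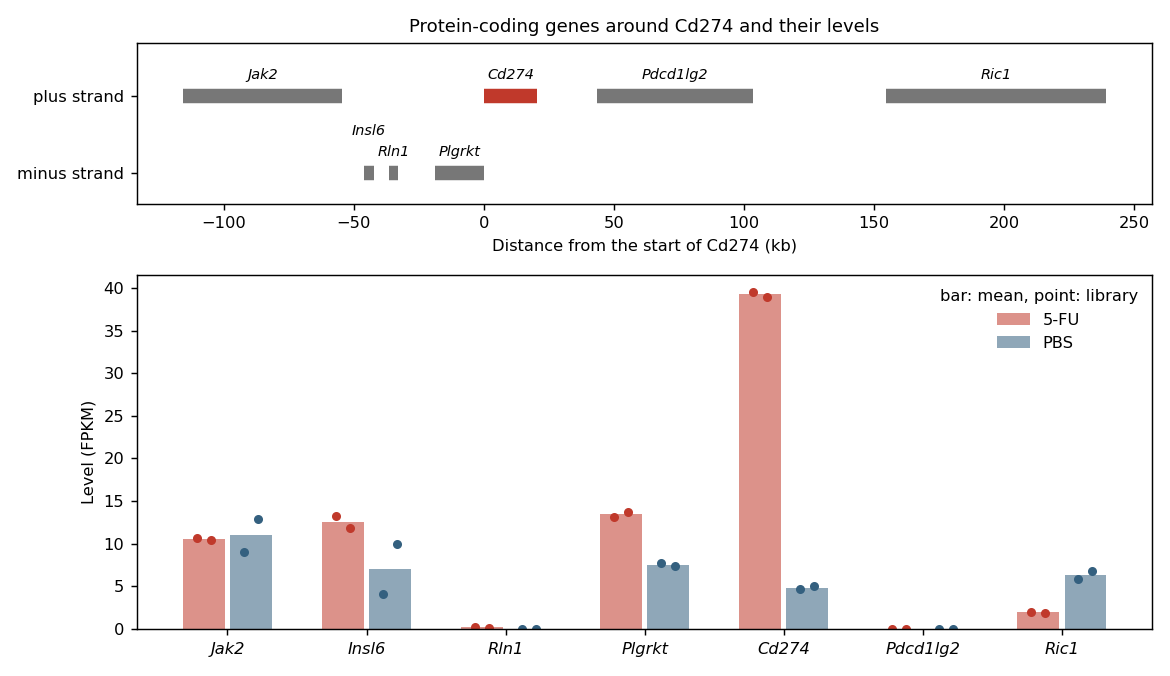
Upper panel, protein-coding genes within 200 kb of Cd274 by distance from its start in kb and by strand; lower panel, mean FPKM (bars from 0) and single libraries (points) in 5-FU and PBS. Cd274 averaged 39.2 FPKM in 5-FU and 4.84 FPKM in PBS, Plgrkt on the opposite strand also rose, Pdcd1lg2 stayed at or near 0 and Ric1 fell.

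The sequences before both PD-1 ligand genes are shown because these neighbours differed, Cd274 being abundant after 5-FU and Pdcd1lg2 at or near 0 throughout. They are from RefSeq on GRCm38.p6, written 5′ to 3′ on the plus strand, and leave out annotated UTRs. The first covers chr19:29367309-29367437, directly before the RefSeq start of Cd274, and its 47 capitals mark the bases between the GENCODE boundary of Plgrkt and that start. The second covers chr19:29410669-29410918 before Pdcd1lg2.
Cd274: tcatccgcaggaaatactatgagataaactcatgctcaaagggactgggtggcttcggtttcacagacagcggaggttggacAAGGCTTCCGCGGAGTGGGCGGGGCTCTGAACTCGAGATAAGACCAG
Pdcd1lg2: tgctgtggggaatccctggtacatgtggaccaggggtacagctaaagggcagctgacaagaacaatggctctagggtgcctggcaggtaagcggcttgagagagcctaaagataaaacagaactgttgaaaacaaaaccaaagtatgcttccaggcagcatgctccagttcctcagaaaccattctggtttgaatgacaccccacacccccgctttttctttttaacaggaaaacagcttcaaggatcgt
In all, 4 motifs were searched on both strands of the 250 bases before each start. They were an interferon-stimulated response element core (GAAA, any 2 bases, GAAA), a palindromic core (TTCNNNGAA), an NF-kB type site (GGGA, any base, TTTCC) and an E-box (CACGTG). RefSeq windows matched 8 of the 10 genes, and of these the window of Lgals9 alone held any of the letters, the response element core at positions -55 to -46, counted from -1 as the last base before the start. Among 32851 promoter windows of the same length, 2.98% held the response element core, 7.02% the palindromic core, 0.356% the NF-kB type site and 6.02% the E-box. The window of Lgals9 follows, from chr11:78984947-78985174 on the minus strand, with the match, which reads on the other strand, in capitals.
Lgals9: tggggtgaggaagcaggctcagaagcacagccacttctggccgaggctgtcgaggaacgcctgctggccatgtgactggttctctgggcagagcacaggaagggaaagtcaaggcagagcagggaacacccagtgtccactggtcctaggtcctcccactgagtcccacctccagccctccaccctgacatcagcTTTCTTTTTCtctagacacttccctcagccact

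Genes whose profile over the 4 libraries was nearest to that of Cd274, by Euclidean distance of centred log2(FPKM + 1) values among 7347 named genes with a mean of at least 5 FPKM, were Zfp36, Gadd45g, Osgin1, n-R5-8s1 and Ppp1r15a. In that order, their distances were 0.267, 0.401, 0.406, 0.43 and 0.478. Zfp36, which encodes an mRNA decay factor, was at 58.1 and 53.8 FPKM in 5-FU and 8.91 and 8.42 FPKM in PBS. With 4 libraries in 2 groups, such likeness restates the difference between the groups.

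Cmtm6, whose product binds PD-L1 at the cell surface and keeps it from being degraded in lysosomes, rose together with Cd274 (GRCm38 chromosome 9, 114731116 to 114749344, plus strand). Its level was 21.4 and 21.6 FPKM in 5-FU replicates 1 and 2, against 11.9 and 9.79 FPKM in PBS replicates 1 and 2. The groups did not overlap, and the ratio of means was 1.99 (log2 difference 0.93 ± 0.138 SE, n = 2 libraries in each group, adjusted p = 0.00711). The call was lost without 5-FU replicate 1 (adjusted p = 0.0736) and without 5-FU replicate 2 (0.076), where the difference itself was 0.94 and 0.93. Cmtm4, a paralog whose product can also stabilise PD-L1, fell to 3.49 and 3.86 FPKM in 5-FU, against 25.1 and 30.3 FPKM in PBS (7.53-fold lower, log2 difference -2.61 ± 0.149 SE, adjusted p = 0.0027). The Cmtm4 call held in all 15 other settings. Cmtm6 exceeded Cmtm4 in both 5-FU libraries and Cmtm4 exceeded Cmtm6 in both PBS libraries, on the FPKM scale.

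Ulbp1, the NKG2D ligand gene also known as MULT1 (ENSMUSG00000079685, chromosome 10, 7440362 to 7473638, minus strand), rose to 10.1 and 10.7 FPKM in 5-FU replicates 1 and 2, against 3.32 and 2.63 FPKM in PBS replicates 1 and 2. An estimated 1420 and 1483 reads lay behind the 5-FU values and 924 and 736 behind the PBS values. The groups were well apart, with a ratio of means of 3.50 and a log2 difference of 1.53 ± 0.151 (SE, n = 2 libraries in each group; adjusted p = 0.00368). Its call held in all 15 other settings, over differences of 1.40 to 1.78. Of 8 other NKG2D ligand names, 4 matched a row and 2 of those passed the filter, with 0 called in either direction by limma and 0 at an unadjusted p under 0.05. Raet1d measured 10.7 and 10.9 FPKM in 5-FU and 8.34 and 9.41 FPKM in PBS (adjusted p = 0.146), and Raet1e 8.36 and 8.94 FPKM in 5-FU and 5.67 and 7.17 FPKM in PBS (adjusted p = 0.0971). In both genes the 5-FU libraries lay above the PBS libraries, and their log2 differences were 0.26 and 0.39. Both passed as higher in fits that left out PBS replicate 2 (adjusted p = 0.00303 for Raet1d and 0.000318 for Raet1e) or used quantile normalization (0.0461 and 0.0337). Raet1e also passed in the fit that left out PBS replicate 1 (0.0247) and with the span trend removed (0.00531). Reads of Raet1 family genes may be shared with near-identical copies, so these values are uncertain. H60b was listed at 0 in all libraries, and H60c was at 0.017 and 0 FPKM in 5-FU and 0.00859 and 0 FPKM in PBS. Whether the rise of Ulbp1 differed from the smaller differences of Raet1d and Raet1e was not tested.

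Cd47, whose product signals to SIRPα on macrophages to prevent engulfment, was the gene that fell (ENSMUSG00000055447, chromosome 16, 49800533 to 49915010, plus strand). It measured 10.98 and 10.9 FPKM in 5-FU replicates 1 and 2, against 17.7 FPKM in each PBS library. Both pairs were very close, and the 5-FU libraries lay below the PBS libraries (ratio 0.617, that is 1.62-fold lower; log2 difference -0.65 ± 0.111 SE, n = 2 libraries in each group, adjusted p = 0.0101). The call was lost without 5-FU replicate 1 (adjusted p = 0.164) or 5-FU replicate 2 (0.171), at differences of -0.65 and -0.64. By its GENCODE coordinates Cd47 spans 114.5 kb, the longest of the 10 genes, and long genes were lower more often here. Its RefSeq promoter windows lie inside that span, and a RefSeq start would put Cd47 under 100 kb. Of 1205 tested genes spanning at least 100 kb 56.4% were called lower, with a median log2 difference of -0.62, against 28.2% of the 10439 under 100 kb, with a median of -0.03. After each library's trend with gene span was removed, an adjustment chosen after seeing the data, the difference of Cd47 was -0.12 and did not pass (adjusted p = 0.405). That value rests on the GENCODE span of Cd47, and the adjustment was not tested with a shorter span. Qpctl, picked out after its values were seen, which encodes the enzyme that modifies CD47 for binding to SIRPα, measured 4.73 and 4.71 FPKM in 5-FU and 6.15 and 3.35 FPKM in PBS, overlapping (adjusted p = 0.917).

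Lgals9, which encodes galectin-9, a sugar-binding protein reported to bind TIM-3, was the most abundant of the 10 in both groups. Its level was 48.2 and 43.9 FPKM in 5-FU replicates 1 and 2, against 31.4 and 36.9 FPKM in PBS replicates 1 and 2. The groups did not overlap, but the gap between them (43.9 against 36.9 FPKM) was not much wider than the gap within PBS. The ratio of means was 1.35 and the log2 difference 0.42 ± 0.132 (SE, n = 2 libraries in each group; 95% interval 0.08 to 0.77), with an adjusted p of 0.0499 at the edge of the threshold. Its call was lost in 12 of 15 other settings, including without 5-FU replicate 1 (0.405), without 5-FU replicate 2 (0.261) and with the replicate number as a block (0.0761), while the difference stayed between 0.31 and 0.54.

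Pvr and Tnfsf9 showed differences that did not pass. Pvr, which encodes the poliovirus receptor CD155, a ligand of TIGIT, CD96 and CD226, measured 27.4 and 26.8 FPKM in 5-FU replicates 1 and 2 and 22.6 and 21.9 FPKM in PBS replicates 1 and 2. Its log2 difference was 0.27 ± 0.105 (SE; 95% interval -0.0018 to 0.55, adjusted p = 0.0836). Tnfsf9, which encodes the 4-1BB ligand that costimulates T cells, measured 22.4 and 21.8 FPKM in 5-FU and 19.2 and 15.2 FPKM in PBS, with a difference of 0.36 ± 0.15 (SE; 95% interval -0.04 to 0.75, adjusted p = 0.105). In both genes the 5-FU libraries lay above the PBS libraries, and the intervals leave room for no difference as well as for a rise. With median-ratio scaling both passed as higher (adjusted p = 0.0347 for Pvr and 0.0389 for Tnfsf9). They also passed when PBS replicate 1 was left out (0.00336 and 9.74e-05) and when PBS replicate 2 was (0.00881 and 0.0318), where the error rests on the close 5-FU pair. The start of Tnfsf9 overlaps Gm11110 on the opposite strand (3.41 and 3.69 FPKM in 5-FU, 5.11 and 6.88 FPKM in PBS), and Pvr holds the pseudogene Gm16184 on the opposite strand, so a small part of their reads may be shared.

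**Figure D3:**
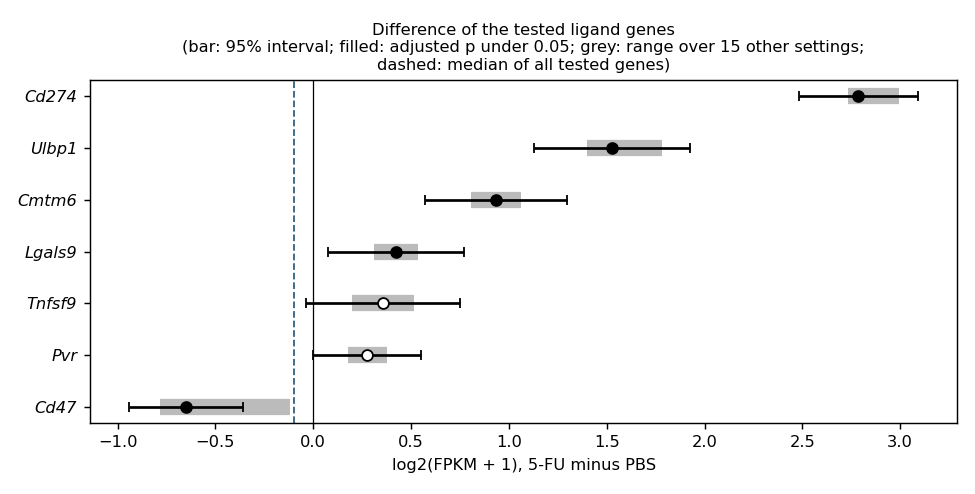
Log2(FPKM + 1) difference, 5-FU minus PBS (horizontal axis), of the 7 tested genes with 95% intervals; filled points passed at an adjusted p under 0.05, grey bands give the range over 15 other settings and the dashed line the median of all tested genes (-0.10). Cd274 (2.79), Ulbp1 (1.53) and Cmtm6 (0.93) lie clear of 0, the grey band of Cd47 reaches -0.12, and the intervals of Pvr and Tnfsf9 include 0.

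Cd80 and Vsir were below the filter, like Pdcd1lg2, but Vsir was above the level of 3 reads in both PBS libraries. Cd80 was above that level in both 5-FU libraries and in PBS replicate 2, though on a few reads each. For Cd80 the level of 3 reads was 0.0389 and 0.0393 FPKM in 5-FU and 0.0196 and 0.0195 FPKM in PBS. Cd80, the B7-1 costimulatory gene, measured 0.0847 and 0.0855 FPKM in 5-FU and 0 and 0.0283 FPKM in PBS, about 6.53 reads in each 5-FU library and 0 and 4.35 reads in the PBS libraries. Vsir, which encodes the inhibitory ligand and receptor VISTA, measured 0.0192 and 0.0193 FPKM in 5-FU, or 2 reads in each library, and 0.0965 and 0.431 FPKM in PBS, or 20 and 90 reads. On the FPKM scale, though not as a ratio, its PBS libraries were thus further from each other than PBS replicate 1 was from the 5-FU libraries. With no filter on low values, limma gave adjusted p = 0.0622 for Cd80, 0.26 for Vsir and 0.828 for Pdcd1lg2. Vsir lies wholly within Cdh23 on the opposite strand, which was at 0.00836 and 0.00844 FPKM in 5-FU and 0 and 0.0112 FPKM in PBS.

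Of 24 other checkpoint and costimulatory ligand genes, 10 were tested, 1 rose, 2 fell and 7 did not pass, with a median log2 difference of 0.22. The shares over all tested genes were 22.1% higher and 31.2% lower. Cd276, which encodes the B7 family protein B7-H3, fell to 1.95 and 1.5 FPKM in 5-FU, against 4.81 and 7.15 FPKM in PBS (3.47-fold lower, log2 difference -1.34 ± 0.219 SE, adjusted p = 0.009, and 0.0566 without 5-FU replicate 2). Nectin1, a cell adhesion gene of the Pvr family, fell to 0.456 and 0.317 FPKM, against 1.25 and 1.01 FPKM in PBS (adjusted p = 0.0202). That call was lost without 5-FU replicate 1 or 2 (0.173 and 0.276) and with the span trend removed (0.213). Fasl, which encodes the death ligand that engages Fas, had 2.51 and 3.18 FPKM in the 5-FU libraries (an estimated 101 and 127 reads), against 0.0375 and 0 FPKM in the PBS libraries (3 and 0 reads), with adjusted p = 0.00278. Fasl passed the filter through the 5-FU libraries alone and Nectin1 through the PBS libraries alone, so a gene of that kind had to differ to be tested. Counts of the list moved in both directions when single libraries were left out, as did those over all tested genes. With median-ratio scaling 3 were higher and 2 lower of 10 tested, beside 3094 and 3266 of all 11641 tested. With no filter 3 were higher and 2 lower of 22 tested, beside 2368 and 2836 of all 23640 tested.

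The 21 genes of interferon signalling and other transcriptional control of Cd274 all passed the filter, and 8 rose, 5 fell and 8 did not pass, with a median log2 difference of 0.09. For comparison, 22.1% of all tested genes were called higher and 31.2% lower, and the list was not tested against those shares. Irf2, an interferon regulatory factor gene, rose to 45.8 and 45.1 FPKM in 5-FU, against 12.7 and 13.6 FPKM in PBS (ratio 3.45, log2 difference 1.71 ± 0.108 SE, adjusted p = 0.0027). Ifngr1, the ligand-binding chain of the interferon gamma receptor, rose to 22.2 and 19.9 FPKM, against 11.5 and 10.97 FPKM in PBS (ratio 1.87, adjusted p = 0.00675). Among the falls, Myc was at 9.92 and 10.2 FPKM in 5-FU against 27.3 and 26.2 FPKM in PBS (adjusted p = 0.003). The kinase gene Cdk5 was at 5.76 and 6.08 FPKM against 16.1 and 14.1 FPKM (adjusted p = 0.00419), and the Janus kinase gene Tyk2 at 1.11 and 0.882 FPKM against 2.9 and 2.58 FPKM (adjusted p = 0.00803). Without either 5-FU replicate the calls of Ifngr1 and Tyk2 were lost. Counts of the list moved in both directions when single libraries were left out, as did those over all tested genes. With no filter the list held 4 higher and 3 lower, where 2368 and 2836 of all 23640 genes tested were called.

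Among 17 genes that act on the ligand proteins, by stabilising, modifying or shedding them, 1 rose, 9 fell and 7 did not pass, with a median log2 difference of -0.44. Over all tested genes 22.1% were called higher and 31.2% lower, with a median of -0.10. Whether the list differed from those shares was not tested. Besides Cmtm4, the shedding protease gene Adam10, whose product cuts several surface ligands free, fell to 7.80 and 7.96 FPKM in 5-FU, against 29.6 and 31.9 FPKM in PBS (3.90-fold lower, log2 difference -1.84 ± 0.114 SE, adjusted p = 0.0027). Its relative Adam17 fell to 9.62 and 9.74 FPKM, against 21.1 and 23.9 FPKM in PBS (2.32-fold lower, adjusted p = 0.00419). Both calls held in all 15 other settings. Cops5, which encodes a deubiquitinase reported to stabilise PD-L1, rose to 50.4 and 48.5 FPKM, against 30.3 and 32.8 FPKM in PBS (ratio 1.57, adjusted p = 0.00998, and 0.163 and 0.138 without 5-FU replicates 1 and 2). The list held 1 higher and 4 lower with no filter, 2 and 6 with median-ratio scaling and 2 and 5 with the span trend removed. Over all genes, 2368 were higher and 2836 lower of 23640 with no filter. With median-ratio scaling 3094 were higher and 3266 lower of 11641. When single libraries were left out, counts of the list moved in both directions, as did those over all tested genes. Protein amounts were not measured.

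**Figure D4:**
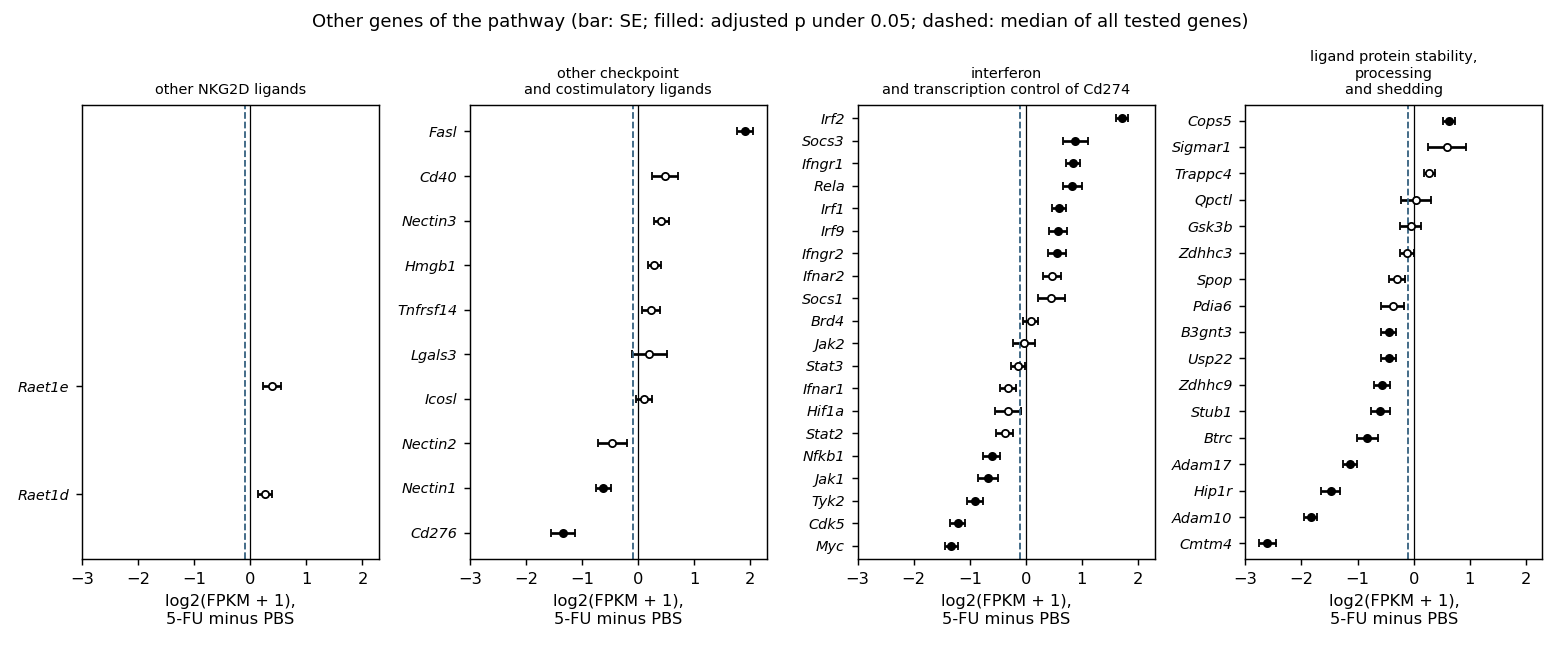
Log2(FPKM + 1) difference, 5-FU minus PBS (horizontal axis), with SE for the tested genes of 4 further lists, 1 interferon list gene not shown; filled points passed at an adjusted p under 0.05 and the dashed line is the median of all tested genes. Irf2 (1.71) and Fasl (1.91) stand highest, and Cmtm4 (-2.61) and Adam10 (-1.84) lowest.

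Of 24 receptors for these ligands and leukocyte markers, 4 passed the filter, Havcr2, Tigit, Tnfrsf9 and Cd68. Cd68, a lysosomal gene used as a macrophage marker, was the most abundant at 17.95 and 16.0 FPKM in 5-FU and 6.29 and 19.3 FPKM in PBS, with overlapping groups (adjusted p = 0.38). Havcr2, which encodes TIM-3, measured 2.54 and 2.62 FPKM in 5-FU and 2.64 and 3.36 FPKM in PBS (adjusted p = 0.428). The summed level of the 24 was 30.6 to 33.9 FPKM in 5-FU and 21.8 to 36.5 FPKM in PBS. Ctla4, Cd3e and Ncr1 were listed at 0 in all 4 libraries, and Ptprc, the pan-leukocyte gene for CD45, was at 0.017 and 0.0342 FPKM in 5-FU and 0.00854 and 0 FPKM in PBS. Tigit, the receptor of CD155, rose to 6.53 and 5.24 FPKM in 5-FU, against 2.51 and 1.17 FPKM in PBS (adjusted p = 0.0173, 0.0731 without 5-FU replicate 1 and 0.0703 with no filter). Tnfrsf9, which encodes 4-1BB, the receptor of the Tnfsf9 product, fell to 6.39 and 6.36 FPKM, against 10.3 and 12.49 FPKM in PBS (adjusted p = 0.0142, 0.147 and 0.152 without 5-FU replicates 1 and 2, and 0.0666 with quantile normalization). Pdcd1, the PD-1 gene, was at 0 and 0.0252 FPKM in 5-FU and 0 and 0.0125 FPKM in PBS. All 3 endothelial markers stayed below the filter, with sums of 0.231 to 0.257 FPKM in 5-FU and 0.102 to 0.179 FPKM in PBS.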

How the data were processed

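RNA of 4 MC38 libraries (5-FU and PBS, 2 each) was sequenced from its polyadenylated fraction, as the labels' protocols state. The authors deposited FPKM values for 36445 genes. STAR 2.4.1a, Picard 2.9.0 and build GRCm38 are named, without roles, per the submitters' processing notes. Which counter, annotation and strand setting made the values was not given here. GENCODE release M21 held 36295 of the gene IDs and gave coordinates and exonic lengths. Depth was estimated as the reciprocal of the commonest smallest step of FPKM times exonic length. Among values below 100 reads, 63.1% to 65.1% then lay within 0.02 of a whole read, so reads are estimates.

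The 5-FU libraries were tested against PBS with limma 3.58.1 under R 4.3.3 (linear model, empirical Bayes with trend) on log2(FPKM + 1), two-sided, adjusted over all 11644 tested genes, and the code was tested on simulated data. An exact permutation test of 2 against 2 libraries cannot go below p = 0.333, so it was not used. No label says that replicates were separate cultures, so p-values set group differences against a spread between libraries that may be technical. That spread is moderated by limma towards a trend over all tested genes. Members and lists were chosen with earlier results of these data known. Named genes were the members, up to 3 called genes per direction of each list by smallest adjusted p (the 2 smallest where none passed), and the 5 genes nearest Cd274; others are described as picked after their values were seen or serve as list checks. A gene of the interferon list enters the counts but is not reported here. Alternatives varied the pseudocount, filter, scaling, variance model, replicate block and libraries used.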

Additional observations from a re-analysis of the deposited data

How the results depend on the processing

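Over 15 other settings, 35 tested genes (those under the naming rule and the neighbours of Cd274) gave 512 further values, of which 41 lost a call, 16 gained one and 4 changed sign. All 4 were of Jak2, which was 0.058 with median-ratio scaling, 0.17 with quantile normalization, 0.33 with the span trend removed and -0.28 to 0.20 with single libraries left out (0.20 without PBS replicate 2), against -0.04. With single libraries left out, members called higher ranged from 2 to 6 and members called lower from 0 to 1, while all tested genes called higher ranged from 481 to 4428 and lower from 1311 to 4624. At a mean of at least 5 FPKM, 2158 genes were lower in place of 3628, with fewer genes tested. Removing the span trend, with spans from GENCODE, left 0 members lower. The replicate block gave 3 members higher and 1 lower, and 2484 higher and 3553 lower genes in all. Replicate numbers are not stated to pair the libraries, and deviations of same-numbered libraries correlated at -0.01 over tested genes. Depth limits Pdcd1lg2 and Cd80 in all libraries and Vsir in the 5-FU libraries, where values rest on a few reads. The cause of the other changes was not tested.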
